A study of Drosophila melanogaster with 3 samples.

Results

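The nuclear receptor genes svp, tll, Hr38, Hr51, dsf, Hr4, Hr78, Hr96, ERR and Hnf4 were looked up among the genes near Bsh:Dam peaks in L4 neurons of the Drosophila lamina. They are 10 nuclear receptor genes other than the ecdysone receptor and its main response regulators, out of 17684 annotated genes on the 6 chromosomes with peaks. They were chosen by name, and Hr51 was also searched under its other name, unf. Listed peaks were found at svp, Hr4 and ERR in every replicate, and none was listed for the other 7 genes in any replicate.

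Nuclear receptors are transcription factors with a zinc finger DNA-binding domain and, in most cases, a pocket for a small lipophilic ligand. Some of the fly receptors pattern the embryo and the nervous system, and others control metabolism or act in hormone cascades at molting and metamorphosis. In the lamina, Svp (seven-up, the fly COUP-TF) is used as a marker of L1 neurons, and Tll (tailless) is used as a marker of lamina precursor cells.

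The samples form 1 group of 3 biological replicates. Bsh:Dam, a fusion of the homeodomain factor Bsh to a bacterial DNA methylase, was expressed under 31C06-Gal4, with tubP-GAL80[ts] to restrict it in time and UAS-myristoylated-tdTomato in the same flies. The window was 46–76 hr APF (after pupa formation), and laminae of several pupae were pooled per sample. The flies kept their own Bsh, and the profile comes from a transgene rather than from the endogenous protein. As methylation is read from whole laminae, its restriction to L4 neurons depends on the driver. A peak reports binding of the fusion and not transcription, so markers of gene expression cannot check the cell type here.

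Each peak has a score and an FDR (false discovery rate) from the authors' peak caller. The score ranks peaks within a replicate and is relative to Dam alone, and its formula was not worked out here. The peak lists hold 2834 to 2891 peaks with a median score of 2.77 to 3.08, the lowest in replicate 3. They give no read depth. Peaks within 1 kb of a gene are listed for it, and a gene was called when the highest of these scores exceeded 2.5 in each of the 3 replicates. The value of 2.5 is the study's own threshold.

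By this rule 3 of the 10 receptor genes (30.0%) had a peak, against 9.74% of all annotated genes and 10.6% of protein-coding genes. With no threshold on the score the same 3 genes were found, against 13.2% of annotated genes with a listed peak in all 3 replicates and 18% with one in at least 1 replicate. Long genes offer more room for a peak, so the count was also read by gene length, in classes set after the values were seen. Of the receptor genes of 20 kb or more, svp and Hr4 had a peak while Hr38 and Hnf4 had none, which is 2 of 4, against 47.9% of all annotated genes of this length. Of the 6 shorter ones only ERR had a peak, against 7.37% of annotated genes under 20 kb. With so few genes in each class, these counts are descriptions only.

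By the systematic names of the receptors, tll, Hr51 and dsf belong to the NR2E class, and 0 of these 3 genes had a listed peak at any score. The other NR2 receptors among the 10 genes are svp, Hr78 and Hnf4, of which svp alone had one. Among Hr38, Hr4, Hr96 and ERR, which lie outside NR2, Hr4 and ERR had one. Of the remaining fly receptors, usp and Hr83 also carry NR2 names, Hr83 in the NR2E class, and no peak was listed for either. Over all annotated genes, 18% had a listed peak in at least 1 replicate. The genes tll, Hr51, dsf and Hr83 are all under 20 kb, a length at which 7.37% of annotated genes were called. That share uses the threshold of 2.5 in all 3 replicates, a stricter rule than a listed peak at any score. The share with any listed peak was not computed for this length. The grouping by class was not planned in advance, and counts over so few genes are descriptions only.

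The highest score of svp was 4.39, 4.31 and 3.94 in replicates 1, 2 and 3 (mean 4.21 ± 0.24, SD, n = 3). The highest score of ERR, the estrogen-related receptor, which drives glycolytic metabolism in the larva, was 3.91, 3.90 and 3.78 (mean 3.86 ± 0.072, SD, n = 3). For Hr4, which acts in the ecdysone cascade at the onset of metamorphosis, it was 3.33, 3.38 and 3.01 (mean 3.24 ± 0.20, SD, n = 3). By highest score, the order svp, ERR, Hr4 was the same in every replicate, and the ranges of neighbouring genes did not overlap. All 3 genes had their lowest score in replicate 3, the replicate with the lowest median score over all peaks.

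**Figure D1:**
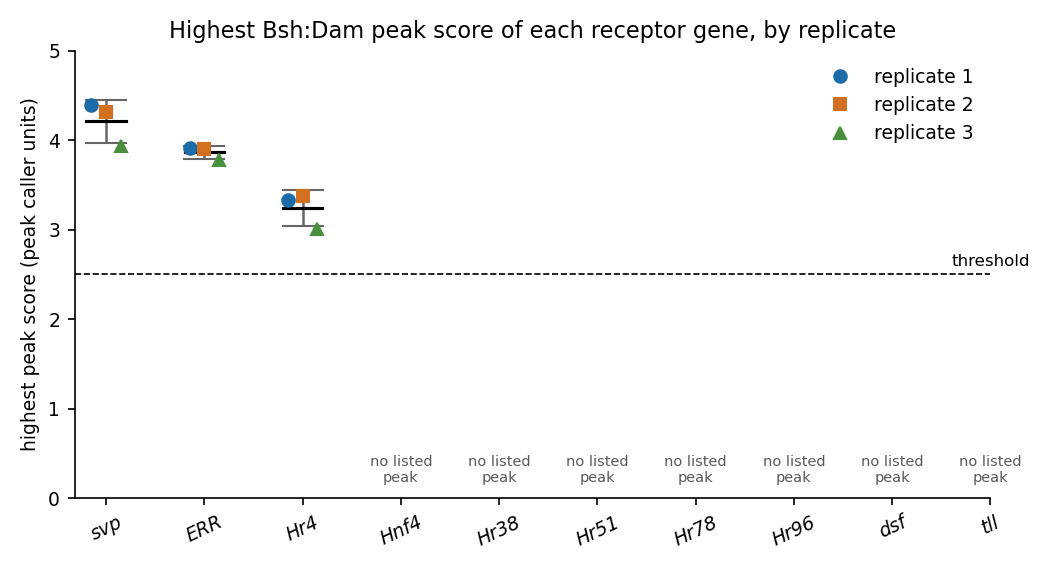
Highest peak score of each of the 10 receptor genes (vertical axis, in the units of the peak caller) in replicates 1, 2 and 3 (symbols), with the mean (black line) and SD (bars). Genes without a listed peak carry a note in place of a value, and the dashed line is the threshold of 2.5. svp, ERR and Hr4 stand above it in every replicate, at means of 4.21, 3.86 and 3.24.

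Within a replicate, svp was above ERR by 0.48, 0.41 and 0.16 (mean 0.35 ± 0.17, SD, n = 3). The ranges came closest here, at 3.94 for the lowest svp value and 3.91 for the highest ERR value. ERR was above Hr4 by 0.58, 0.52 and 0.77 (mean 0.62 ± 0.13, SD, n = 3). A two-sided exact permutation test gave p = 0.1 for either pair, the smallest p that 3 values against 3 can give. As the genes share the 3 libraries, the within-replicate differences were also tested by exact two-sided sign flips, added after the values were seen, which gave p = 0.25 for either pair, the smallest p that 3 differences can give. Neither exact test can reach the 0.05 level with 3 replicates. The pairs were taken from the order of these same scores. With ranges apart and the same order in every replicate, both p-values were fixed and add nothing to that order. A highest score is also taken over more peaks in a gene that has many, and the genes differ in this: ERR had 1 peak per replicate, svp 2, and Hr4 6, 6 and 7.

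The order of svp and ERR depended on this summary. With the mean over all peaks of a gene in place of the highest score, svp had 3.99, 4.03 and 3.69 in replicates 1, 2 and 3, above ERR in replicates 1 and 2 but below its 3.78 in replicate 3. The ranges then overlapped, and the mean difference was 0.037 ± 0.12 (SD, n = 3). ERR stayed above Hr4 in every replicate, by 1.09 ± 0.076 on average (SD, n = 3).

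Ranked among all listed genes by highest score, svp was at or above 96.5%, 94.5% and 89.7% of them in replicates 1, 2 and 3. ERR was at or above 83.9%, 82.7% and 84.5%, and Hr4 at or above 58.6%, 59.7% and 57.3%. The rank of svp thus fell in replicate 3, whereas those of ERR and Hr4 moved little. Divided by the median score of all peaks in the same replicate, the highest score of svp was 1.47, 1.40 and 1.42, that of ERR 1.31, 1.27 and 1.36, and that of Hr4 1.12, 1.10 and 1.09. Dividing all genes of a replicate by the same median cannot change their order within it. The ranges of the 3 genes over replicates did not overlap on this scale either.

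Peak positions are printed as the authors deposited them, without a named build. Both peaks of svp lie inside the annotated gene, which spans 44.0 kb. The stronger one lies on chromosome 3R from 12258845 to 12260114 in all 3 replicates, with the same start and end each time. It is 1270 bp long and begins 0.108 kb inside the lower-coordinate border of the gene. Strand was not used, so this border may be the start or the end of svp. The FDR of the peak was 2.18e-06, 1.21e-05 and 6.13e-05 in replicates 1, 2 and 3, and its score was at or above that of 97.6%, 96.0% and 91.9% of all peaks.

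The same interval is also within 1 kb of the protein-coding genes CG44037 and CG44038, which the annotation places inside the span of svp. Both are listed with the score of this peak in every replicate, so the peak cannot be given to svp alone. The second svp peak has no such neighbour within 1 kb. It lies from 12292859 to 12294086 in replicates 1 and 3 and from 12293009 to 12294086 in replicate 2, 34.1 kb or more from the lower border.

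The second svp peak scored 3.58, 3.75 and 3.43 in replicates 1, 2 and 3 (mean 3.59 ± 0.16, SD, n = 3). The first was higher by 0.81, 0.56 and 0.51 (mean 0.63 ± 0.16, SD, n = 3), and their ranges did not overlap. The FDR of the second peak, 0.0034, 0.0038 and 0.0015, passed the authors' limit of 0.01 in every replicate but not a limit of 0.001. Taken alone, this peak would still put svp above the threshold of 2.5.

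**Figure D2:**
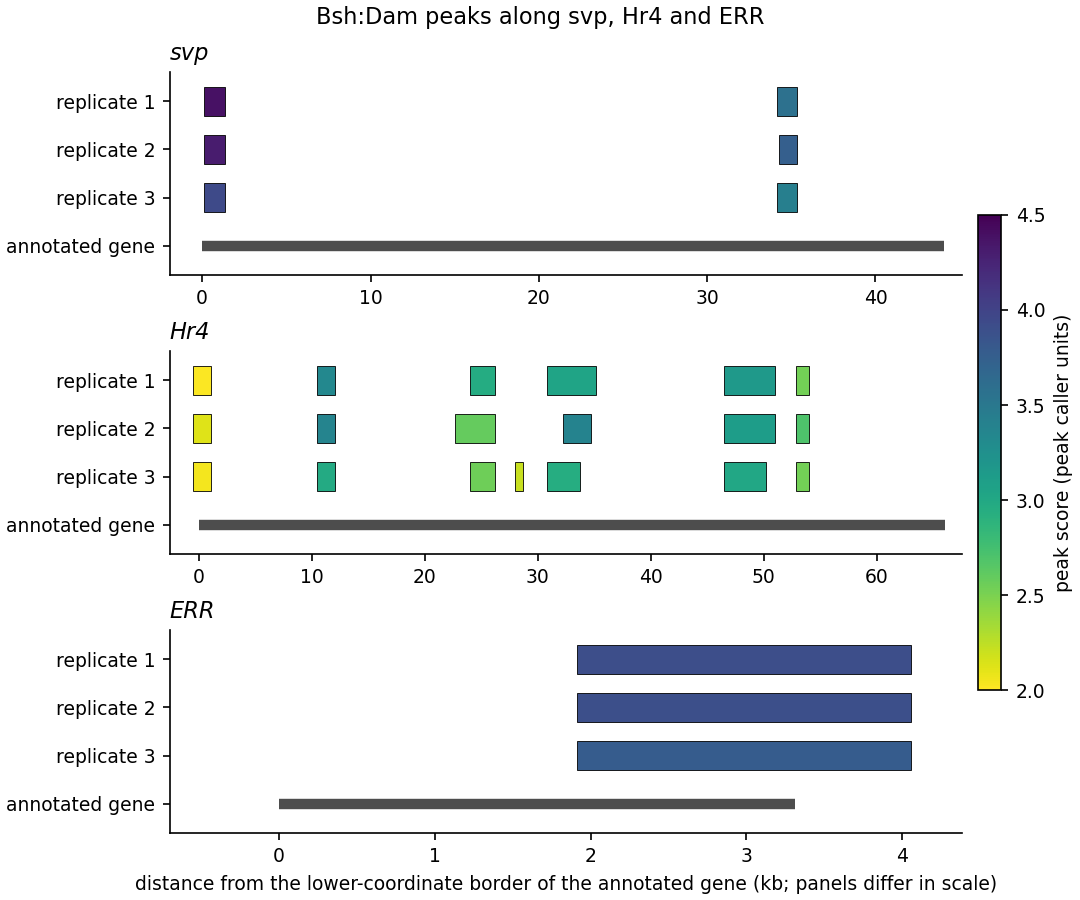
Peaks of replicates 1, 2 and 3 (boxes, coloured by score in the units of the peak caller) along svp, Hr4 and ERR (grey bars, the annotated gene), with the distance from the lower-coordinate border of the gene in kb on the horizontal axis. The 2 svp peaks begin 0.108 kb and 34.1 kb or more inside that border, Hr4 has 6 or 7 peaks along its length, and the ERR peak extends beyond the upper border.

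ERR is the shortest of the 3 genes at 3.31 kb. Its peak lies on 3L from 8185276 to 8187415 and had the same start and end in all 3 replicates, a length of 2140 bp. The peak starts inside the gene and ends beyond its upper-coordinate border. With an FDR of 2.39e-07, 1.67e-06 and 1.43e-07, it passed the stricter limit of 0.001 in every replicate, and its score was at or above that of 86.6%, 85.1% and 87.5% of all peaks. It also lies within 1 kb of Atg18a, a gene of the autophagy machinery, and of the antisense RNA gene CR45870, which overlaps ERR. Both are listed with the same scores as ERR, and a peak list does not separate the 3 genes.

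Of the 3 genes, Hr4 had the most peaks, which fall into 7 sites numbered here along the X chromosome. The gene spans 66.0 kb, and its 6, 6 and 7 peaks cover 15340, 14774 and 13786 bp in replicates 1, 2 and 3. In the same replicates 1.09%, 0.938% and 1.15% of the listed symbols had 6 or more peaks. These shares take in symbols of every length, and long genes offer more room for peaks. Eip75B, another nuclear receptor gene, of 114 kb, had 7, 9 and 8 listed peaks. In every replicate 5 of the Hr4 peaks scored above 2.5.

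The strongest sites of Hr4 were sites 2, 5 and 6. Site 2, from 1952406 to 1953945 in every replicate, scored 3.33, 3.37 and 2.98 (mean 3.23 ± 0.21, SD, n = 3). Site 5 scored 3.04, 3.38 and 2.95 (mean 3.12 ± 0.23, SD, n = 3), and site 6 scored 3.16, 3.12 and 3.01 (mean 3.10 ± 0.078, SD, n = 3). Their ranges overlap, and a different one of them was highest in each replicate, namely site 2 in replicate 1, site 5 in replicate 2 and site 6 in replicate 3. The highest score of Hr4 therefore comes from different places in the gene.

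Sites 5 and 6 were broad and their borders varied. Site 5 ran from 1972707 to 1977106 in replicate 1, from 1974138 to 1976607 in replicate 2 and from 1972707 to 1975691 in replicate 3. Site 6 started at 1988388 in every replicate and ended at 1992949 in replicates 1 and 2 and at 1992105 in replicate 3. At 4562 bp in replicate 1 it was at least as long as 98.1% of all peaks, while its score was at or above that of 56.5% of them. Its FDR was 1.19e-07, 3.13e-07 and 2.70e-07, the lowest among the Hr4 peaks in each replicate and below that of the stronger first svp peak.

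Site 3 scored 2.96, 2.59 and 2.55 (mean 2.70 ± 0.23, SD, n = 3), and site 7, from 1994814 to 1995922, scored 2.53, 2.70 and 2.53 (mean 2.59 ± 0.098, SD, n = 3). These were the sites just above the threshold. Just below it was site 4, from 1969901 to 1970615, which was listed in replicate 3 alone with a score of 2.21. Site 1, from 1941400 to 1942997 in replicates 1 and 2 and to 1942987 in replicate 3, scored lowest, with 2.01, 2.12 and 2.04. It crosses the lower border of Hr4 and lies within 1 kb of the protein-coding gene CG3587, which is listed with the same scores. Site 2 lies near the pseudogene CR46447, which is annotated inside Hr4 and absent from the gene lists, and sites 3 to 7 lie near no other annotated gene.

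**Figure D3:**
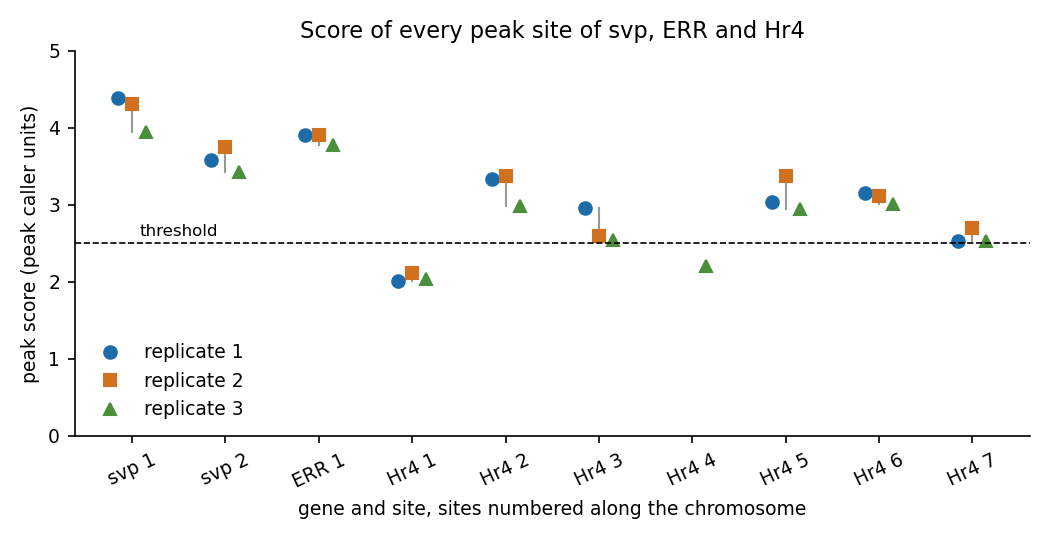
Score (vertical axis, in the units of the peak caller) of every peak site of svp, ERR and Hr4 in replicates 1, 2 and 3 (symbols), with a grey line from the lowest to the highest value. The dashed line is the threshold of 2.5, which Hr4 sites 1 and 4 do not reach. Site 4 of Hr4 was listed in replicate 3 alone.

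Together the 3 genes had 9, 9 and 10 peaks in replicates 1, 2 and 3, and 27 of these 28 peaks (96.4%) shared at least 1 bp with peaks of both other replicates. Over all peaks of the series the share was 82.9%. The exception was Hr4 site 4. A site found in all 3 replicates counts 3 times here, so the 28 peaks are not independent, and most lie in Hr4. Among peaks with an FDR below 0.001 the shares were alike, 80.0% of the 15 peaks of these genes and 79.9% of all peaks. At the same start and end in all 3 replicates were the first svp peak, the ERR peak and Hr4 sites 2 and 7. Which Dam library each replicate was compared with was not given in the sources used here.

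For the other 7 receptor genes no line was found in any gene list, and no peak lay within 1 kb or within 5 kb of the annotated gene. A gene without a listed peak may still bear weaker signal, since the lists hold only peaks that passed the authors' limits. The distance from each of these genes to the nearest peak was between 8.48 and 147 kb. For comparison, the 14496 annotated genes without a listed peak in any replicate had a median distance of 16.3 kb, taking the nearest peak of the 3 replicates.

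tll, which patterns the ends of the embryo, the brain and the optic lobe, was the farthest from any peak. The nearest was 120 kb away in replicates 1 and 2, and 147 kb away in replicate 3. Measured by the closest replicate, 97.2% of genes without a listed peak were as near to one as tll or nearer. Both of these peaks lie near 5-HT7, a serotonin receptor gene. dsf (dissatisfaction), which acts in neurons of sexual behavior, was 38.9 kb from a peak or farther in all 3 replicates, and 78.1% of genes without a listed peak were as near or nearer. The nearest peaks to dsf scored 2.23, 2.44 and 2.45.

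Hr51 (unfulfilled), needed for axon growth in the mushroom body, was 13.8 kb from its nearest peak, which was in the same position in all 3 replicates and lies near unc-5, a Netrin receptor gene. This peak scored 2.95, 3.19 and 2.56. Hr78, a receptor with a role in the tracheal system, was likewise 18.0 kb from the same peak in every replicate, with scores of 2.77, 2.90 and 2.56. For both genes the distance lay near the middle of the genes without a listed peak, of which 44.4% and 53.3% were as near or nearer.

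Hr38, the fly NR4A receptor, which is induced by neuronal activity, lay closest to a peak. The peak on 2L from 20673325 to 20674978 was 8.48 kb from Hr38 and scored 3.25 and 3.21 in replicates 1 and 2, near CG31678. It was not the nearest in replicate 3, where the distance was 24.1 kb. Hr96, a receptor with roles in xenobiotic response and lipid balance, had the same pattern, with 8.67 kb in replicates 1 and 2 and 21.2 kb in replicate 3. At Hnf4, which controls fatty acid oxidation, the nearest peak was 25.4 kb away in replicates 1 and 3 and 62.5 kb away in replicate 2. The nearest peak thus changed between replicates for tll, Hr38, Hr96 and Hnf4. The genes named here beside these peaks were chosen after the values were seen.

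**Figure D4:**
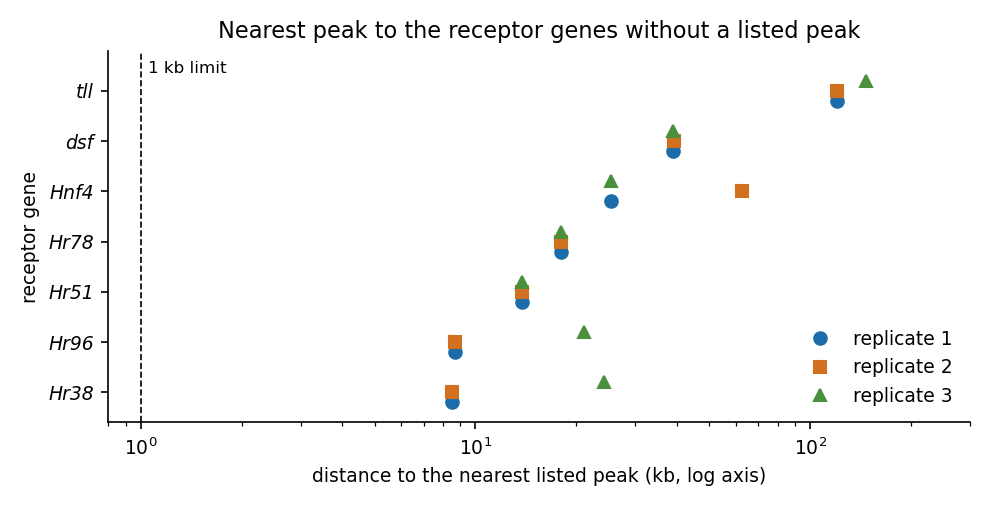
Distance from the 7 receptor genes without a listed peak to the nearest peak (horizontal log axis, in kb) in replicates 1, 2 and 3 (symbols). The dashed line marks 1 kb, the limit for listing a gene. All values lie to the right of it, from 8.48 kb at Hr38 to 147 kb at tll.

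The fly has 11 further nuclear receptors, which include the ecdysone receptor EcR and its partner usp, the ecdysone-induced receptors Eip75B, Eip78C, Hr3 and Hr39, ftz-f1, Hr83 and the knirps group of kni, knrl and eg. Of these, EcR, Eip75B, Eip78C, ftz-f1 and Hr3 (listed as Hr46) had a peak by the same rule, 5 of 11 (45.5%), and no peak was listed for the other 6. All 5 are longer than 20 kb, as are Hr39 and knrl, which had none. Over all 21 receptors, 7 of the 11 genes of 20 kb or more had a peak and 1 of the 10 shorter genes, ERR. By the same rule 9.74% of all annotated genes were called, 47.9% of those of 20 kb or more and 7.37% of shorter ones. By mean highest score, Eip75B stood above svp, at a mean of 4.44 ± 0.15 (SD, n = 3) from values of 4.27, 4.51 and 4.55, and the 2 ranges overlapped. Unlike svp, ERR and Hr4, the genes Eip75B, EcR and Eip78C had their highest score in replicate 3. That replicate had the lowest median score over all peaks. Hr3 and ftz-f1 had their lowest score there. EcR was above svp in replicate 3 but below it in replicates 1 and 2. What sets these differences between genes was not tested.

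**Figure D5:**
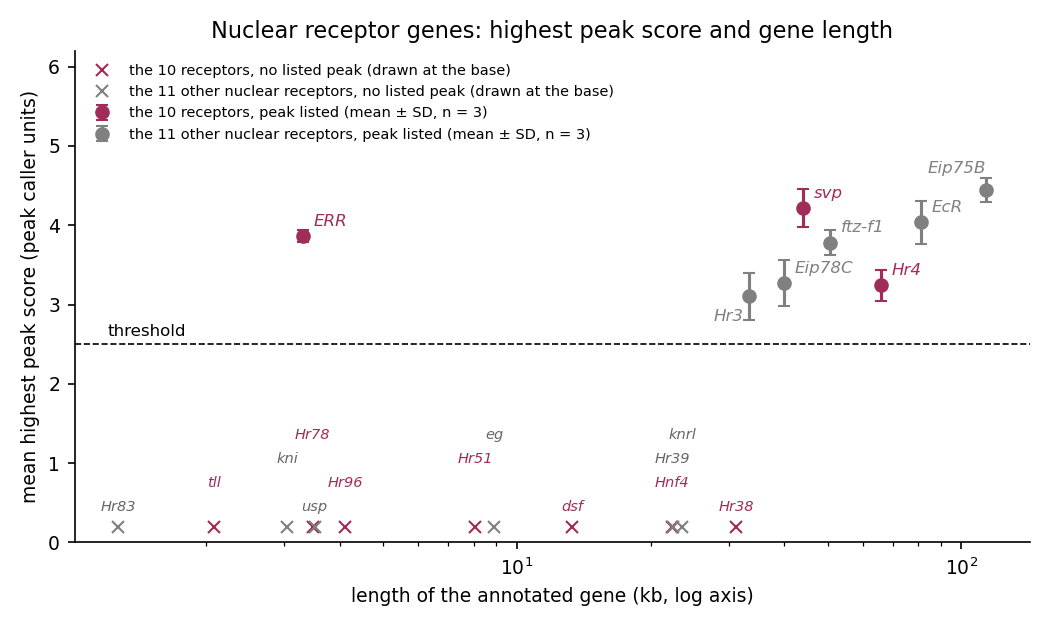
Mean highest peak score (vertical axis, in the units of the peak caller, with SD over 3 replicates) against the length of the annotated gene (horizontal log axis, in kb) for the 10 receptors and the 11 other nuclear receptors. Crosses at the base are genes without a listed peak. ERR, at 3.31 kb, is the only receptor gene under 20 kb with a peak.

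Nuclear receptors act through cofactors, and 5 of these were looked up: tai and trr, coactivators of the ecdysone receptor, Smr, its corepressor, Gug (Atrophin), a corepressor of Tll, and rig, which binds several receptors. Peaks were found by the same rule at Gug, Smr and tai, 3 of 5, and none was listed for trr or rig. The list was chosen with earlier results of these data known, so this count is a description only. The 3 genes with a peak are all of 20 kb or more, a length at which 47.9% of all annotated genes were called, and trr and rig are shorter. Gug scored 4.72, 4.78 and 4.75 in replicates 1, 2 and 3, above the highest svp score in each.

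Among the markers of lamina neurons, svp (L1) was set beside bab2 (L2), erm (L3), ap (L4) and pdm3 (L5), together with bsh itself. No peak was listed for bab2, erm or pdm3 in any replicate. ap had one in every replicate, with highest scores of 4.19, 4.01 and 3.83, each below that of svp in the same replicate, although their ranges overlapped. The highest svp score comes from the peak shared with CG44037 and CG44038. The second svp peak, at 3.58, 3.75 and 3.43, was below the highest ap score in every replicate. bsh was listed in replicate 1 alone, with a score of 2.51. svp and ap were thus the only markers of this list with a peak above 2.5 in all 3 replicates. All of these markers except bsh are of 20 kb or more, a length at which 47.9% of all annotated genes were called.

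Over the 3 replicates, the scores most like those of svp were those of CG15861 and Tina-1, with identical values of 4.45, 4.26 and 3.97, at a Euclidean distance of 0.084 from svp, and of bru-2, with 4.34, 4.38 and 3.91, at 0.091. This likeness was measured on highest scores over 3 replicates among 2632 symbols listed in each of them, outside the lists above and away from the svp peaks. With 3 values per gene it describes the level of the scores more than a pattern.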

How the data were processed

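Bsh:Dam binding in L4 neurons was profiled by Targeted DamID in 3 replicates. The authors checked reads with FastQC 0.11.9, ran the damidseq pipeline for log2 ratios (Bsh:Dam over Dam), called peaks per replicate with find_peaks (FDR below 0.01, min_quant 0.9) and listed genes within 1 kb with peaks2genes. The deposited values are a score per peak, an FDR per peak and a score per line of each gene list. Reads and Dam libraries were not analysed here. The methods state a range of reads per sample, but the files hold no read counts per replicate or peak, so intervals that need them are not given.

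Highest scores per gene, overlaps and distances were computed in Python 3.11.15 with numpy 2.4.6 and pandas 2.3.3, and figures were drawn with matplotlib 3.10.9. The code was first tested on simulated data. Gene spans, lengths and older symbols came from RefSeq, Release 6 plus ISO1 MT. The files name no build. For 99.9% of the matched gene-list lines in each replicate, a peak of the listed score lay within 1 kb of the RefSeq gene, against 7.09% to 8.11% after a shift of 50000 bp. Annotated positions are not printed, and motifs were not searched. In the gene lists, 19, 36 and 40 names had no unique match.

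The text names the receptors, their cofactors, lamina markers, genes within 1 kb of a peak of svp, Hr4 or ERR, the 3 symbols with scores nearest to svp and, chosen after their values were seen, 5-HT7, unc-5 and CG31678 beside the nearest peaks of tll, Hr51 and Hr38. Genes and lists were chosen with earlier results of these data known. Alternatives changed the score threshold, the FDR limit, the number of replicates, the overlap, the margin around genes, symbol matching and the summary of scores, and left out each replicate in turn. Backgrounds by gene length and of protein-coding genes, the sign-flip test and the order of genes by mean score were chosen after seeing the data.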

Additional observations from a re-analysis of the deposited data

How the results depend on the processing

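The count of 3 receptor genes with a peak was the same under all alternatives run. These were no score threshold or one of 3, at least 1 or 2 replicates, and each replicate left out. Others were peaks by position with no margin, 1 kb or 5 kb, an FDR below 0.001, and symbols matched through RefSeq. The looser settings could not add a gene, as the other 7 had no peak within 5 kb. Hr4 passed the threshold of 3 narrowly, with 3.01 in replicate 3. At an FDR below 0.001 svp kept only its first peak, which is shared with CG44037 and CG44038. Of the 63 alternative values over all results, 54 were counted as close to the main one and 9 as moved. The 54 include the cofactor count at a threshold of 3, given next. They also include values that could not change, such as the mean over the single ERR peak. With a threshold of 3, 3 of the 11 other nuclear receptors had a peak in place of 5, and 2 of the 5 cofactors in place of 3, as tai scored 2.84 in replicate 3. With the mean over all lines of a gene in place of its highest score, svp had 3.90 and Hr4 2.78, and svp was then close to ERR, whose single peak gives 3.86. The mean difference of svp and ERR fell to 0.037 with its sign turned in replicate 3 (-0.095), and that of ERR and Hr4 rose to 1.09. Divided by the median of all peaks, svp, ERR and Hr4 had 1.43, 1.31 and 1.10, a change of unit. With peaks limited to an FDR below 0.001, 12 of 15 peaks (80.0%) overlapped both other replicates, against 79.9% of all peaks at this limit. Leaving out 1 replicate, the mean highest score ranged from 4.13 to 4.35 for svp, 3.84 to 3.91 for ERR and 3.17 to 3.36 for Hr4. The difference of svp and ERR ranged from 0.28 to 0.45, and that of ERR and Hr4 from 0.55 to 0.68. The share of overlapping peaks ranged from 94.7% to 100%. With 1 replicate left out, a peak has to overlap only 1 other replicate, a looser rule than the main one. With the replicate as a block, the differences are the same by construction, 0.35 for svp and ERR and 0.62 for ERR and Hr4. The exact sign-flip test gave p = 0.25 for either pair, a value that the order of the scores had already fixed. The samples form a single group, so no groups could be paired.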
